A study of Mus musculus with 10 samples.

Results

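B cells carry a surface receptor in which an immunoglobulin binds antigen and the paired chains CD79A (Igα) and CD79B (Igβ) carry the signal into the cell. The kinases SYK and BTK and the adaptor BLNK pass it on, and CD22 restrains it. Splenic γδ T cells are T cells with a receptor of their own, and the genes in question are used as B cell markers in the same organ. The 7 B cell identity genes Ms4a1, Cd79a, Cd79b, Cd22, Fcrla, Blnk and Bank1 were found by Entrez ID in the deposited table of 27179 genes. All 7 were counted and all 7 were among the 12655 genes tested.

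RNA-sequencing was done on effector memory (EM) γδ T cells of the spleen, which had been sorted by flow cytometry as CD3+ γδTCR+ and, for the memory state, CD62L- CD44+, with 1 library for each of 5 naïve and 5 pre-exposed mice. All were female C57BL/6 mice aged 6 to 8 weeks at infection. The pre-exposed mice had received 50000 red blood cells infected with *Plasmodium chabaudi*, a rodent malaria parasite, into a vein, while the naïve mice had received none. Both groups were injected on day 14, or the matching day, with chloroquine and pyrimethamine at 10 mg/kg each and drank water with both drugs for 5 days, and spleens were taken 12 weeks after this treatment. The sort used no B cell marker, and the purity of the sorted cells is not given in the sources used here.

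Total counts were 6587199 to 19993444 in the naïve and 8747888 to 22542832 in the pre-exposed libraries. The γδ T cell receptor gene Trdc, which fits the label, stood at 2718 ± 868 CPM (SD, n = 5) in naïve and 2399 ± 980 CPM in pre-exposed mice. CPM are counts divided by the library size and scaled to 1e6, with the size multiplied by the TMM factor of each library, which ranged from 0.68, in pre-exposed mouse 5, to 1.11. Levels of different genes are compared as CPM per kilobase of counted length. Pre-exposed mouse 5 had the lowest level of its group for Ms4a1, Cd79a, Cd79b and Blnk, and results that rest on it are also given without it. The sample descriptions name an index pair for every library except those of pre-exposed mice 2, 3 and 4, so for these mice this difference and the infection cannot be told apart, and fold changes are also given for mice 1 and 5 alone.

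RefSeq promoters were at hand for 5 of the 7 genes. Those of Cd79a, Fcrla and Blnk are shown because these genes rose, and that of Cd22 because it did not. They are the 250 bases before the annotated start of 1 RefSeq transcript, in GRCm38.p6 and 5′ to 3′ on the gene's strand, and capitals mark motif matches.
Cd79a, chr7:24897247-24897496, plus strand: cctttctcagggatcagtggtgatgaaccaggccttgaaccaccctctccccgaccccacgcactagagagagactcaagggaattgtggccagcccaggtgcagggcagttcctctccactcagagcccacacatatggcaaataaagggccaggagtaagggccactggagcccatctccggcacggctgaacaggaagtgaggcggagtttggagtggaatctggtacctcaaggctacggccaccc
Fcrla, chr1:170927584-170927833, minus strand: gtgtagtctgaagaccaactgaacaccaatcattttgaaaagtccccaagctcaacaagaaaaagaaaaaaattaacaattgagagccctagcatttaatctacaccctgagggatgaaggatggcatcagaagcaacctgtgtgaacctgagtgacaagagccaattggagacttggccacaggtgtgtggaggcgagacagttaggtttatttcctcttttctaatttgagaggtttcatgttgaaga
Blnk, chr19:40994222-40994471, minus strand: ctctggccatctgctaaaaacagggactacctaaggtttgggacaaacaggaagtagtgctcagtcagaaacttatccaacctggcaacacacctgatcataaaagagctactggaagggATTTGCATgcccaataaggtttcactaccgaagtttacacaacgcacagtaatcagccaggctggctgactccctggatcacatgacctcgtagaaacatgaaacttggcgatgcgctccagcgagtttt
Cd22, chr7:30879029-30879278, minus strand: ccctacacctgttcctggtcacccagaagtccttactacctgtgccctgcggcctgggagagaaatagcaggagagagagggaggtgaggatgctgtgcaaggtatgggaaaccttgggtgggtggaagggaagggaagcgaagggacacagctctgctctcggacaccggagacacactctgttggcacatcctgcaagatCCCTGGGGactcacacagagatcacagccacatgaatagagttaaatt
Both strands of windows of 300 bases, which run 50 bases past the start, were searched for 3 motifs of B cell transcription factors. The octamer ATTTGCAT, bound by OCT factors, was present in the Blnk window at position -130 and in 1.74% of all 32851 promoters. The core CCCNNGGG of the EBF1 site was present in the Cd22 window at -48, in the Bank1 window at -21 and in 13.7% of all promoters. The PU.1 and Ets motif GAGGAAGT, held by 3.2% of all promoters, was found in none of the 5. These are matches of exact letters, and the Cd79a and Fcrla windows held no exact match to any of the 3 motifs. Sites that differ from these letters are missed, so the lack of a match does not show that a binding site is absent.

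The 7 genes fell apart by their level in the libraries of naïve mice. A first class was well detected, at 35.4 CPM or more, and a second class was low, at 3.07 CPM or less. Cd79b and Cd22 were in the first class and did not pass the test. Ms4a1, Cd79a, Fcrla and Blnk were in the second class and were higher in pre-exposed mice, and Bank1, also in the second class, did not pass. Thus 4 of 7 genes were higher and 0 lower in edgeR's quasi-likelihood test across all 12655 genes, which called 5.12% of all genes higher and 1.18% lower. The 0 lower was also 0 at an unadjusted p under 0.05 and with DESeq2, which called 2 of the 7, Fcrla and Cd79a, higher, as well as 8.38% of all genes for which it gave an adjusted p. Ms4a1, Fcrla and Blnk reached the cutoff of the low-count filter in 1, 2 and 3 naïve and in 4, 5 and 4 pre-exposed libraries, so the pre-exposed group helped to bring them into the test. In naïve mice the per-kilobase order was Cd79b, Cd22, Cd79a, Blnk, Bank1, Fcrla and Ms4a1. Cd79b exceeded Cd22, and Cd22 exceeded Cd79a, in 5 of 5 naïve mice. Each later gene exceeded the next in only 3 of 5, so those neighbours did not differ beyond their spread.

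**Figure D1:**
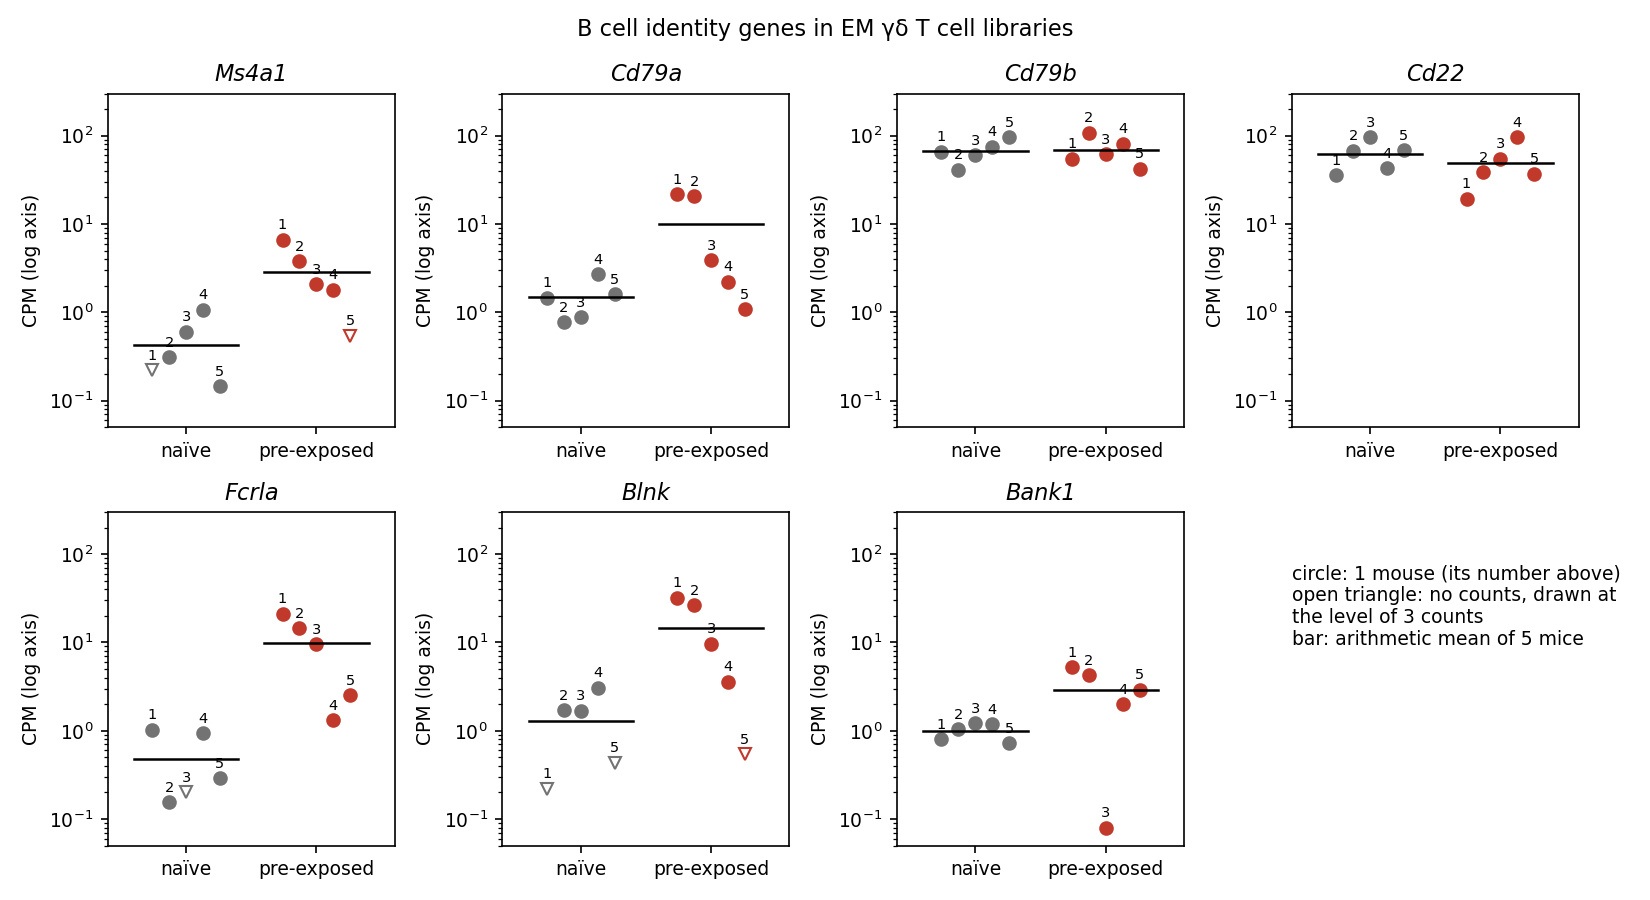
CPM with TMM scaling (log axis) of each B cell identity gene in each mouse of the naïve (grey) and the pre-exposed (red) group; the number above a point is the mouse, open triangles are libraries with no counts drawn at the level of 3 counts, and bars are arithmetic means. Cd79b and Cd22 lie between 19.3 and 108 CPM in all 10 mice, whereas the other 5 genes lie at 3.07 CPM or less in naïve mice.

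Of the receptor's signalling chains, Cd79b (chromosome 11, 106311341 to 106314562) was the most abundant of the 7 genes per kilobase in both groups. Naïve mice 1 to 5 had 65.6, 41.2, 60.1, 74.7 and 95.5 CPM, and pre-exposed mice 1 to 5 had 55.0, 108, 61.2, 81.0 and 42.1 CPM. The groups overlapped nearly fully. The log2 fold change of pre-exposed over naïve was 0.05 ± 0.29 (SE; edgeR, adjusted p = 0.930; exact two-sided permutation test of mean log2 CPM, p = 0.944).

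Cd79a (chromosome 7, 24897497 to 24901858), whose product pairs with that of Cd79b, stood far lower. Its level was 1.47, 0.776, 0.874, 2.72 and 1.59 CPM in naïve mice 1 to 5. Pre-exposed mice 1 to 5 had 21.7, 20.5, 3.90, 2.22 and 1.09 CPM. Mice 1 and 2 were far above every naïve mouse and mouse 3 was above them by less, whereas mice 4 and 5 lay within the naïve range. The log2 fold change was 2.88 ± 0.75 (edgeR, adjusted p = 0.0382). The exact permutation test gave p = 0.0635, where 5 against 5 mice allow a smallest p of 0.00794.

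The chains were therefore present in different proportion. Per kilobase, Cd79b was 49.5, 58.9, 76.2, 30.4 and 66.6 times Cd79a in naïve mice 1 to 5. For pre-exposed mice 1 to 5 the values were 2.81, 5.85, 17.4, 40.4 and 42.8 times. The ratio in mice 1, 2 and 3 was below that in all naïve mice, while mice 4 and 5 fell within the naïve range. The log2 CPM of Cd79a less that of Cd79b was -5.43 ± 0.46 (SD, n = 5) in naïve and -3.56 ± 1.67 in pre-exposed mice (difference 1.87, exact permutation test, p = 0.0397). It was 2.25 without pre-exposed mouse 5. Against Cd22 the difference was 2.33 (exact permutation test, p = 0.103). These 2 ratios were chosen after the levels had been seen.

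**Figure D2:**
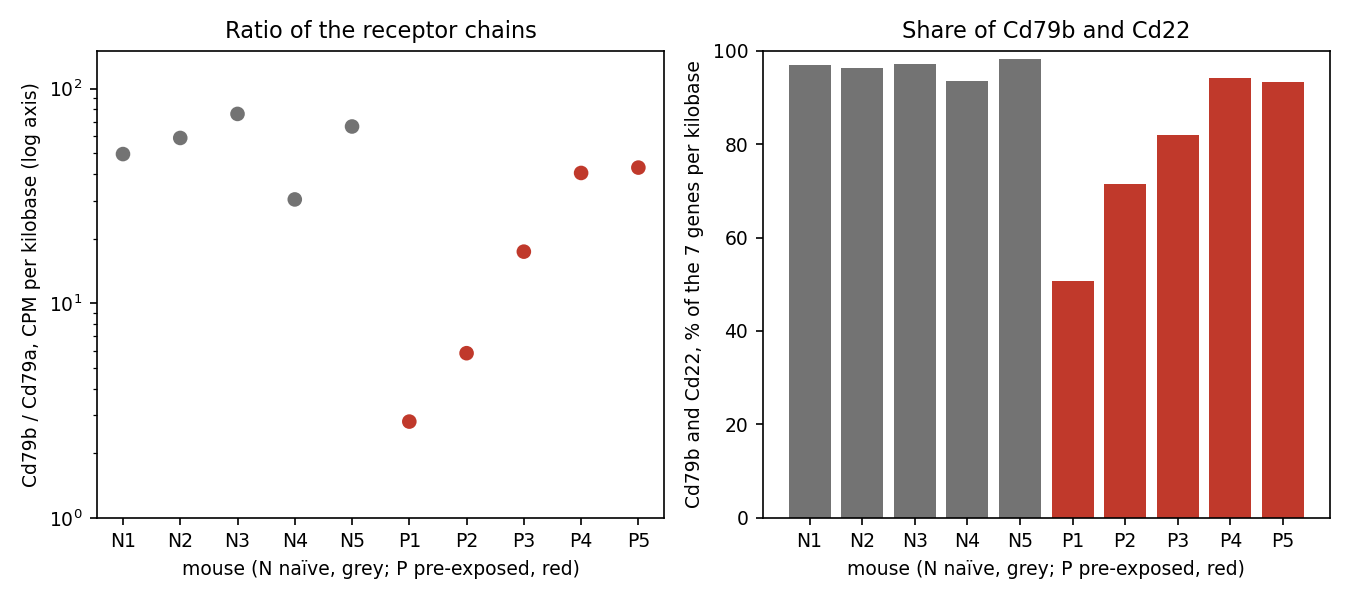
Left, level of Cd79b over that of Cd79a, both in CPM per kilobase, on a log axis; right, Cd79b and Cd22 together as a percent of the summed CPM per kilobase of the 7 genes; N are naïve and P pre-exposed mice. The share lies between 93.6% and 98.3% for all naïve mice, and it is 50.8%, 71.5% and 81.9% for pre-exposed mice 1, 2 and 3.

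Cd22 (chromosome 7, 30865404 to 30880342) encodes a sialic acid-binding receptor that dampens B cell receptor signals. Its level was 35.4, 67.7, 96.4, 42.6 and 68.3 CPM in naïve mice 1 to 5, and 19.3, 38.3, 54.6, 95.3 and 37.2 CPM in pre-exposed mice 1 to 5. Pre-exposed mouse 1, which had the highest Cd79a, had the lowest Cd22 of all 10 mice. Cd22 had a log2 fold change of -0.34 ± 0.38 (edgeR, adjusted p = 0.618; exact permutation test, p = 0.349). Of the 21 pairs among the 7 genes, Cd79b and Cd22 had the smallest root mean square (RMS) difference, at 0.76. It was taken between log2 CPM, each gene centred on its mean over the 10 libraries. The next were Ms4a1 with Cd79a, at 1.03, and Ms4a1 with Blnk, at 1.12. This measure is small for genes that vary little, as Cd79b and Cd22 did, so it does not show that they moved together. Pre-exposed mouse 2 had the highest Cd79b of all 10 mice, at 108 CPM, but a Cd22 of 38.3 CPM.

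Ms4a1 (chromosome 19, 11249679 to 11266149) encodes CD20, a surface protein of B cells. It had 25 counts over the 5 naïve and 200 over the 5 pre-exposed libraries. Naïve mice 1 to 5 had 0, 0.310, 0.605, 1.06 and 0.144 CPM, where the 0 allows up to 0.220 CPM (3 counts). Pre-exposed mice 1 to 5 had 6.66, 3.80, 2.07, 1.80 and 0 CPM, and here the 0 allows up to 0.545 CPM. Mice 1 to 4 were above every naïve mouse and mouse 5 had no counts. Ms4a1 had a log2 fold change of 2.88 ± 0.77 (edgeR, adjusted p = 0.0366; exact permutation test, p = 0.119).

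Fcrla (chromosome 1, 170917594 to 170932216) encodes an Fc receptor-like protein that stays inside B cells. It showed the largest fold change of the 7 genes. Its level was 1.03, 0.155, 0, 0.945 and 0.289 CPM in naïve mice 1 to 5, with 27 counts over all 5. It was 21.1, 14.5, 9.55, 1.32 and 2.54 CPM in pre-exposed mice 1 to 5, with 673 counts. Fcrla was the one gene of the 7 with every pre-exposed mouse above every naïve mouse, a pattern seen in 2.77% of all genes tested. The gap was small for mouse 4, at 1.32 CPM against 1.03 CPM in naïve mouse 1. The log2 fold change was 4.47 ± 0.81 (edgeR, adjusted p = 0.0101), and the exact permutation test gave p = 0.00794, the smallest it can give.

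Blnk (chromosome 19, 40928927 to 40994221) encodes the adaptor that links SYK to BTK and phospholipase Cγ2. Its level was 0, 1.71, 1.68, 3.07 and 0 CPM in naïve mice 1 to 5. It was 32.2, 26.5, 9.63, 3.61 and 0 CPM in pre-exposed mice 1 to 5. Mice 1 to 4 were above all naïve mice, mouse 4 narrowly, and mouse 5 had no counts, as had naïve mice 1 and 5. For Blnk the log2 fold change was 3.48 ± 0.91 (edgeR, adjusted p = 0.0383; exact permutation test, p = 0.135).

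Bank1 (chromosome 3, 136053363 to 136326141) encodes a scaffold that binds the kinase LYN. Naïve mice 1 to 5 had 0.807, 1.03, 1.21, 1.18 and 0.722 CPM, the narrowest naïve range of the 5 low genes. Pre-exposed mice 1 to 5 had 5.23, 4.23, 0.0796, 2.01 and 2.91 CPM. Mouse 3, with 1 count, was below every naïve mouse, and the other 4 were above all of them. Its log2 fold change was 1.52 ± 0.63 (edgeR, adjusted p = 0.152; exact permutation test, p = 0.341). Ms4a1, Fcrla, Blnk and Bank1, 4 of 7 genes, were above all naïve mice in 4 or 5 pre-exposed mice, as were 14.2% of all genes tested.

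The low genes did not keep 1 proportion to each other across the pre-exposed mice. Per kilobase, Fcrla was 0.748, 0.543, 1.88, 0.456 and 1.79 times Cd79a in pre-exposed mice 1 to 5, and Blnk was 0.941, 0.817, 1.56, 1.03 and 0 times Cd79a. Mouse 3 thus had relatively more Fcrla and Blnk and almost no Bank1. In mouse 5, Fcrla and Bank1 were detected with 14 and 16 counts, Cd79a with 6 and Ms4a1 and Blnk with none. In a bulk library, fewer cells of a type and less RNA per cell cannot be told apart.

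The calls depended on the test and on single mice, and so did those over all genes. Voom with TREAT at a fold change of 1.5, the test named in the study's methods, called 0 of the 7 genes. At an unadjusted p under 0.05 it called 3 of the 7, and after adjustment it called 0.0158% of all genes higher. With sample quality weights it again called 0 of the 7 (4 at an unadjusted p under 0.05), with 1.31% of all genes called higher. Leaving out naïve mouse 1, 2, 3, 4 or 5 left Fcrla as the one gene of the 7 called by edgeR, where 1%, 1.43%, 3.07%, 1.81% and 2.27% of all genes were called higher. Without pre-exposed mouse 2 Fcrla alone was again called, with 0.588% of all genes higher, and without pre-exposed mouse 3 Fcrla and Cd79a were called, with 2.66% of all genes higher.

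Within the libraries that carry an index pair, pre-exposed mice 1 and 5 against the 5 naïve mice, Fcrla had a log2 fold change of 4.86 ± 0.80 (edgeR, adjusted p = 0.0275) and was the 1 gene of 7 called, in a fit that called 0.206% of all genes higher. Ms4a1, at 3.30 ± 0.95 (adjusted p = 0.118), Cd79a, at 3.21 ± 0.76 (adjusted p = 0.108), and Blnk, at 3.74 ± 1.02 (adjusted p = 0.118), had fold changes at least as large as in all mice but were not called. Mouse 5 had no counts of Ms4a1 and Blnk, and its Cd79a of 1.09 CPM was within the naïve range. The fold changes of Ms4a1, Cd79a and Blnk in this fit thus rest on mouse 1. Cd79b was at -0.41 ± 0.34 and Cd22 at -1.10 ± 0.44, neither called (adjusted p = 0.587 and 0.261). In pre-exposed mice 2 to 4 against the naïve mice the same 4 genes as in all mice were called, in a fit that called 15.1% of all genes higher. Their log2 fold changes were 2.68 for Ms4a1, 2.80 for Cd79a, 4.28 for Fcrla and 3.34 for Blnk. Without pre-exposed mouse 5 these 4 were again called, with log2 fold changes of 3.08, 3.17, 4.70 and 3.75 in the same order, against 9.69% of all genes called higher. The difference between mice 1 and 5 and mice 2 to 4 was not tested.

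**Figure D3:**
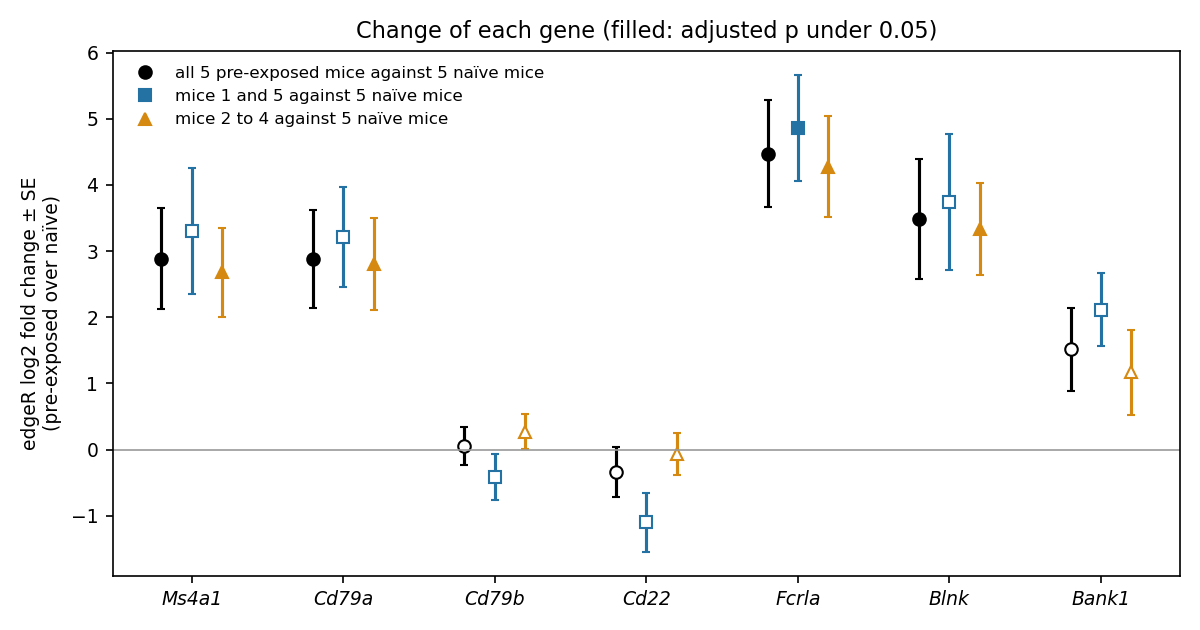
edgeR log2 fold change ± SE of pre-exposed over naïve mice for the 7 genes, with all 5 pre-exposed mice (black circles), mice 1 and 5 (blue squares) or mice 2 to 4 (orange triangles) against the same 5 naïve mice; filled symbols have an adjusted p under 0.05. Fcrla is filled in all 3 fits, whereas Cd79b and Cd22 lie near or below 0.

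Further genes of the B cell lineage were examined beside the 7. Pax5 and Ebf1, which encode the transcription factors that set B cell identity, had no counts in any of the 10 libraries. Of 22 further B cell lineage genes, 14 were tested, 5 were higher and 0 lower (also 0 at an unadjusted p under 0.05 and with DESeq2). The same fit, used for every list below, called 5.12% of all genes higher and 1.18% lower. The median log2 fold change of the 14 was 1.29, and that of all genes was 0.02. Siglecg, a CD22-related inhibitory receptor, had a log2 fold change of 4.68 ± 0.82 (edgeR, adjusted p = 0.00904). It stood at 14.7, 13.5, 15.6, 8.33 and 0 CPM for mice 1 to 5 of the pre-exposed group and did not exceed 0.945 CPM in the naïve group. Ly6d, a surface antigen of early B cells, rose by 5.58 ± 1.04 on the log2 scale, Cd180, a Toll-like receptor homologue, by 3.84 ± 0.84, Cxcr5, the follicle-homing receptor, by 1.65 ± 0.43, and H2-Ob, an MHC class II chaperone chain, by 1.46 ± 0.38. Naïve means of Siglecg, Ly6d and Cd180 were 0.480, 0.884 and 0.240 CPM. As for Ms4a1, Fcrla and Blnk, the pre-exposed group helped to bring these genes into the test, and so into the count of 5. Cd72, another inhibitory coreceptor, resembled Cd79b and Cd22, at 101 ± 16.2 CPM in naïve and 114 ± 28.8 CPM in pre-exposed mice (log2 fold change 0.17 ± 0.23, edgeR, adjusted p = 0.697).

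All 25 genes listed for B cell receptor signalling were tested, most of which T cells use as well, and 7 were higher and 0 lower (2 lower at an unadjusted p under 0.05, and 1 with DESeq2), with a median log2 fold change of 0.16. Fcgr2b, the inhibitory Fc receptor of B cells and myeloid cells, had a log2 fold change of 4.11 ± 0.75, and Btk, a kinase downstream of Blnk, of 4.65 ± 0.92. Syk, which phosphorylates CD79A and CD79B, had 3.11 ± 0.77, and Pirb, an inhibitory receptor of B cells and myeloid cells, had 3.53 ± 0.88. Lyn, at 1.09 ± 0.27, Cd81, at 1.78 ± 0.44, and Plcg2, at 1.14 ± 0.29, made up the rest of the 7 (adjusted p of 0.0121 to 0.0337 over all 7, edgeR). The naïve mean of Btk was 0.482 CPM, so the pre-exposed group also helped to bring it into the test. Syk stood at 39.4, 13.5, 7.08, 13.0 and 0.363 CPM for mice 1 to 5 of the pre-exposed group, and Btk at 20.7, 21.4, 3.58, 5.69 and 0 CPM. Both were above all naïve mice in mice 1 to 4, while in mouse 5 Syk was below all of them, in contrast to Fcrla and Bank1. Blk, a SRC-family kinase of B cells and γδ T cells, stood at 252 ± 121 CPM in naïve and 95.4 ± 43.1 CPM in pre-exposed mice and was not called (log2 fold change -1.39 ± 0.41, adjusted p = 0.0544). The study, with voom and TREAT, listed Blk as lower in pre-exposed mice, and the cause of this difference was not tested.

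Summed levels of several further marker lists moved with the low genes, though not every gene in them did. The first of them are not lists of other cells alone. Immunoglobulin is part of the B cell receptor, and H2-Ob is in both the MHC class II and the B cell lineage list. Of the 19 immunoglobulin and plasma cell genes, 7 were tested and 2, Jchain and Mzb1, were higher. The other tested genes, Xbp1, Sdc1, Prdm1, Irf4 and Derl3, had log2 fold changes of 0.76, 0.08, 0.27, 1.31 and 1.58 and were not called. The summed level of the 19 was 1000 to 5690 CPM in naïve mice and 34734, 49897, 12356, 4366 and 3053 CPM in pre-exposed mice 1 to 5, with Igkc and Ighm the most abundant. The highest naïve sum belonged to naïve mouse 4, which also had the highest naïve Ms4a1, Cd79a and Blnk. All 10 MHC class II genes were higher, with a median log2 fold change of 3.67, and H2-Aa, H2-Eb1, H2-DMb2, H2-Ab1 and Cd74 had the smallest p. Their sum was 120 to 509 CPM in naïve mice and 6044, 10053, 4359, 3643 and 271 CPM in pre-exposed mice 1 to 5. The sum of 11 monocyte and macrophage genes, led by Lyz2 and Csf1r, was 37.0 to 170 CPM in naïve mice and 965, 1473, 626, 324 and 48.3 CPM in pre-exposed mice, with 4 of 7 tested genes higher. The rest of the tested genes, C1qb, C1qc and Vcam1, had log2 fold changes of 0.59, -0.87 and 0.11 and were not called. Mice 1 and 2 were highest and mouse 5 lowest in all 3 of these lists, with mouse 5 inside the naïve range.

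The 8 conventional dendritic cell genes, with Cd209a and Itgax the most abundant, summed to 57.4 to 83.6 CPM in naïve mice, and 5 of 8 were higher. Their sum was 431, 446, 238, 214 and 66.9 CPM in pre-exposed mice 1 to 5. Cd209a had a mean of 4.41 CPM in naïve and 148 CPM in pre-exposed mice. Zbtb46, Itgax and Xcr1 had log2 fold changes of 2.35, 0.45 and 0.01 and were not called. Clec9a and Clec10a, with naïve means of 0.548 and 0.283 CPM, were also brought into the test with the help of the pre-exposed group. The 9 plasmacytoid dendritic cell genes, led by Irf8 and Bst2, summed to 175 to 229 CPM in naïve and 662, 676, 379, 373 and 278 CPM in pre-exposed mice, with 4 of 8 tested genes higher. These were Siglech, Tcf4, Irf8 and Bst2. Ccr9, Runx2, Cox6a2 and Pacsin1 had log2 fold changes of 4.2e-05, 0.29, 0.38 and 0.56 and were not called. The 7 neutrophil genes, led by S100a8 and S100a9, summed to 0.465 to 27.9 CPM in naïve and 99.5, 391, 35.0, 2.91 and 1.09 CPM in pre-exposed mice, with 0 of 2 tested genes called. The part of these cells in the change of the B cell identity genes was not tested.

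Summed levels of the T cell, NK cell and erythroid lists did not order the mice in this way. The 10 γδ T cell genes, led by Trdc and Cd3g, summed to 7423 to 11947 CPM in naïve mice, and 1 of them was higher. Their sum was 4919, 11386, 12493, 10139 and 15522 CPM in pre-exposed mice 1 to 5. The list also holds Cd3d, Cd3e, Cd3g, Cd247 and Cd44, which are not particular to γδ T cells, and the gene called higher was Cd3d. Trdc, Trgc1, Trgc2, Trgc4 and Sox13 had log2 fold changes of -0.18, -0.59, 0.09, -0.10 and -1.55 and were not called. The sum therefore does not show that the γδ receptor genes were kept or raised. Pre-exposed mouse 1, with the highest Ms4a1, Fcrla and Blnk, had the lowest γδ T cell sum of all 10 mice. The 6 αβ T cell genes, led by Trbc2 and Trbc1, summed to 1642 to 1992 CPM in naïve and 1576 to 3289 CPM in pre-exposed mice, with 1 higher. The 5 NK cell genes, led by Klre1 and Klrb1c, were highest in pre-exposed mouse 5, at 4334 CPM against 655 to 1818 CPM in naïve mice, and 0 of 5 were called. The erythroid genes, led by Hbb-bs and Hba-a1, were also highest in mouse 5, at 2041 CPM against 79.6 to 459 CPM in naïve mice, and 5 of 6 tested were higher.

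**Figure D4:**
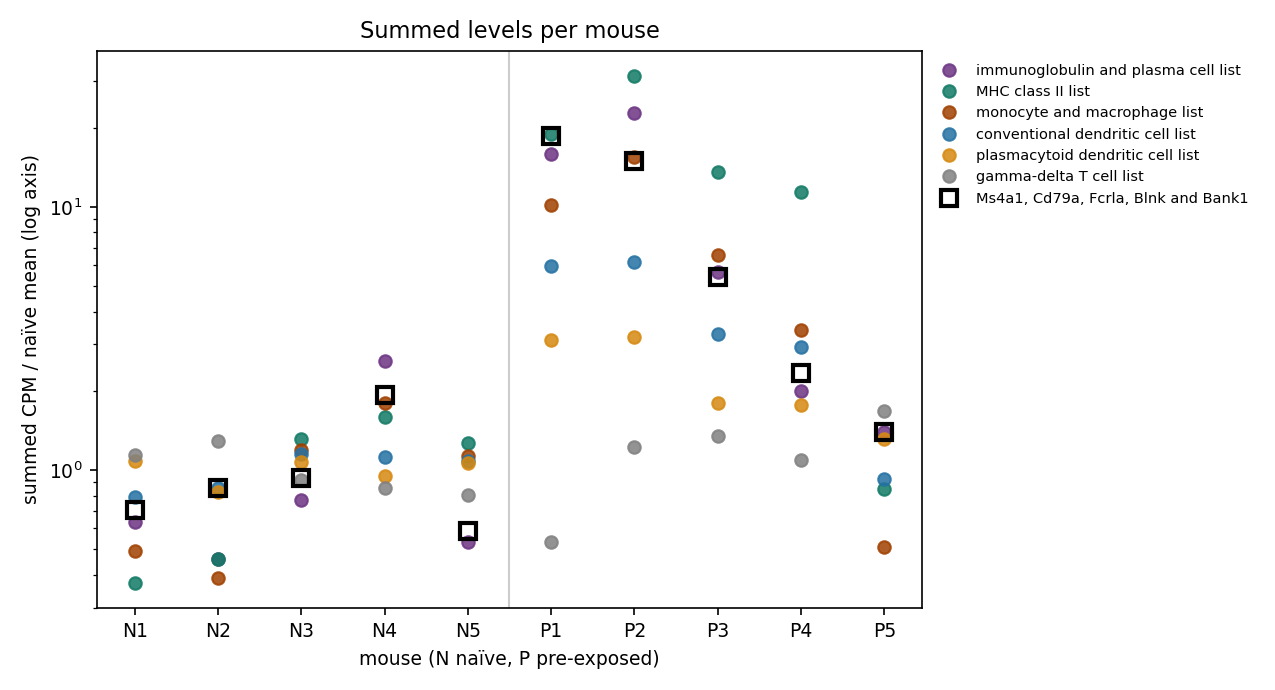
Summed CPM of each list, divided by its mean over the 5 naïve mice, on a log axis (coloured circles), with the same for Ms4a1, Cd79a, Fcrla, Blnk and Bank1 together (open squares); N are naïve and P pre-exposed mice. The squares are highest in pre-exposed mice 1 and 2, as are the circles of the immunoglobulin, MHC class II, monocyte and both dendritic cell lists, whereas the γδ T cell circle is lowest in mouse 1.

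The genes most like the 7 were sought among all other genes tested, by the RMS difference of centred log2 CPM over the 10 libraries. Nearest to the mean profile of the 7 was Irf8, a transcription factor of B cells, dendritic cells and monocytes, at 0.40. It stood at 28.5 to 38.0 CPM in naïve mice and at 169, 210, 104, 116 and 19.4 CPM in pre-exposed mice 1 to 5. Card9, Tlr2, H2-Ob, Cd81, R74862, Asns and Lgmn followed, at 0.42 to 0.48. This likeness is a description over 10 libraries that fall into 2 groups and differ in depth. Small RMS differences also arise between genes that vary little. The mean profile pools Cd79b and Cd22, which did not rise, with the low genes, so it need not describe either class. Irf8 was not among the 2 nearest genes of any single member.

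Single members had different neighbours. Syk (0.51) and Hfe (0.55) were nearest to Ms4a1, Derl3 (0.57) and Asns (0.64) to Cd79a, and Ptpro (0.66) and Pilrb2 (0.75) to Blnk. Dennd5b (0.91) and Jchain (0.93), the joining chain of secreted antibodies, were nearest to Fcrla, and Jchain stood at 5193, 5183, 1842, 331 and 611 CPM in pre-exposed mice 1 to 5. Bank1 was nearest to Trip6 (0.67) and Gm16796 (0.81). Wwox (0.16) and Dcaf4 (0.16) were nearest to Cd79b, and Tmem121b (0.32) and Sox4 (0.36) to Cd22.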

How the data were processed

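EM γδ T cells of 5 naïve and 5 pre-exposed mice gave 1 library each, and groups and mouse numbers were taken from the sample labels. The authors aligned read pairs to mm10 with Subread and deposited whole-number counts per Entrez gene from featureCounts with Subread's built-in annotation, not normalized. Neither versions nor a strand setting were found in these sources, which leaves the assignment of reads between overlapping genes uncertain: Ms4a1 overlaps 4930526L06Rik, which had 0 counts, and Fcrla overlaps Gm2962, which was not counted. For library preparation, a SMART ultra-low input kit is given in the methods of the study and an Illumina TruSeq kit in the labels. The per-library files of all 10 mice equalled the series table. Replicates differed by more than sampling noise, with 22.6 as the smallest chi-square per gene of any pair in a group.

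Symbols, coordinates and promoters came from RefSeq for GRCm38.p6, the assembly that mm10 stands for, and 25275 of 27179 IDs had a symbol. After filterByExpr, which kept 13534 genes, 767 without a symbol and 112 immunoglobulin genes were left out, following the study's methods. The main test was the robust quasi-likelihood test of edgeR 4.0.16 (legacy dispersion off) in R 4.3.3 on all 10 libraries without covariates, with TMM scaling and Benjamini-Hochberg adjustment over the 12655 genes at 0.05. SE is the size of the log2 fold change over the square root of F. Voom with TREAT (limma 3.58.1), the study's own test, and DESeq2 1.42.0 were alternatives. With voom and TREAT the study reported many more genes than the 2 higher and 0 lower called here, and the cause was not tested. Permutation tests were exact and two-sided, on mean log2 CPM (prior count 2), for each of the 7 genes and for the ratios of Cd79a to Cd79b and to Cd22. Fits were tested on simulated counts. P-values measure the spread between these mice, and floors of 3 counts cover counting error only.

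The members and lists were chosen with earlier results of these data known. Named were the 7 members, the 5 genes with the smallest p of the B cell lineage, receptor signalling and MHC class II lists, the 2 most abundant genes of every other list, and the nearest profiles (8 to the mean, 2 to each member). Pax5, Ebf1, Cd72, Plcg2, Blk, Mzb1, C1qb, C1qc, Vcam1, Zbtb46 and Xcr1 were named after their values were seen. So were the genes given beside the 2 most abundant in the immunoglobulin, dendritic cell, γδ T cell and αβ T cell lists. One listed gene is not reported here.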

Additional observations from a re-analysis of the deposited data

Results flagged for a closer look

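Among the levels of the 7 genes and the summed levels of the lists, 40 groups of 5 mice were examined for a mouse far from the other 4 (Dixon's ratio above 0.71), which chance gives in about 1 in 20 groups, and 3 were found, none of them in a B cell identity gene. Naïve mouse 4 was high in the summed immunoglobulin and plasma cell genes, at 5690 CPM. Pre-exposed mouse 5 was high in the NK cell genes, at 4334 CPM, and pre-exposed mouse 2 in the neutrophil genes, at 391 CPM. The other naïve and pre-exposed values are given with the lists.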

How the results depend on the processing

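The main counts were 4 of the B cell identity genes higher, 5 further B cell lineage genes higher, 7 receptor signalling genes higher and 0 lower, and 648 of all genes higher and 149 lower. No B cell identity gene and no further lineage gene was called lower under any alternative run. RLE or upper quartile factors, no scaling factors, no filter beyond 1 count, a filter of CPM of at least 1 in at least 5 libraries, and mice 2 to 4 alone left the same 4 B cell identity genes called, and with immunoglobulin genes kept Blnk was lost. With DESeq2, 2 B cell identity genes were higher, 1 signalling gene was lower, and 1008 of all genes were higher and 342 lower. Voom with TREAT called 0 B cell identity, 0 lineage and 0 signalling genes (3, 7 and 5 at an unadjusted p under 0.05), and 2 of all genes higher and 0 lower. With sample quality weights these were 0, 2 and 2, with 166 of all genes higher, and Bank1 turned to -1.08 without being called. With edgeR's legacy dispersion method they were 1, 2 and 3, with 307 higher and 51 lower. With a covariate for the index pair they were 1, 1 and 0, with 39 higher and 1 lower, and in mice 1 and 5 alone 1, 1 and 0, with 27 higher and 0 lower. In mice 2 to 4, 3 signalling genes were lower, and 1992 of all genes were higher and 1911 lower. Removing the trend with gene length left 1 B cell identity gene called, with 176 of all genes higher and 43 lower. Without scaling factors 3 lineage and 4 signalling genes were higher. Under the CPM filter 3 lineage genes were higher and 99 of all genes lower, with immunoglobulin genes kept 90 were lower, and with no filter beyond 1 count 1 signalling gene was lower. The cause of these changes was not tested. Cd79b turned to -0.46 with the index pair covariate, to -0.41 in mice 1 and 5 and to -0.42 with the length trend removed, and its difference in log2 CPM was -0.12 without scaling factors, in each case without being called.

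With each mouse left out in turn, 1 to 4 B cell identity genes, 2 to 7 lineage genes and 1 to 7 signalling genes were higher, 0 to 2 signalling genes were lower, and 75 to 1255 of all genes were higher and 6 to 741 lower, while Cd79b ranged from -0.20 to 0.21. Fewest of all genes were called higher without pre-exposed mouse 2 and most without pre-exposed mouse 5. Over 25 alternatives Fcrla was called in 22, Cd79a in 12, Ms4a1 in 10 and Blnk in 9, and Cd79b, Cd22 and Bank1 in 0. Log2 fold changes ran from 4.03 to 5.14 for Fcrla, 1.96 to 3.21 for Cd79a, 2.43 to 3.34 for Ms4a1 and 3.00 to 3.88 for Blnk.

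The mouse numbers are shared by both groups, but the sources used here do not say whether they mark a common litter, batch or day. Same-numbered mice did not deviate together (correlations of -0.26 to 0.05), and 0 of them correlated best with their own number. With the number as a replicate block 0 B cell identity genes (4 at an unadjusted p under 0.05), 0 lineage genes (8 at an unadjusted p under 0.05) and 1 signalling gene were higher, and 45 of all genes were higher and 10 lower. Depth limits the low genes most, since a library at 0 allows up to 3 counts, or 0.146 to 0.545 CPM.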
